A study of Bos taurus with 3 samples.

Results

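Bicarbonate and anion exchangers are membrane carriers that move bicarbonate, chloride, sulfate or organic anions across the cell surface. The group described here was chosen by gene name and holds 9 of the 19533 genes in the table. They are SLC4A2, SLC4A4, SLC4A7, SLC4A9 and SLC4A11 of the SLC4 family of bicarbonate transporters, SLC26A2, SLC26A6 and SLC26A11 of the SLC26 family of anion exchangers, and SLCO2A1, the prostaglandin transporter. Rumen epithelium takes up the volatile fatty acids of fermentation and returns bicarbonate to the rumen fluid, and exchangers of these families hold the pH of the cell while it does so. Within the SLC26 family, SLC26A2 and SLC26A11 are best known as sulfate carriers, and SLC26A6 exchanges chloride for bicarbonate or oxalate.

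The data came from single cells of the rumen of 3 adult Holstein dairy cows, under 1 condition and with no treatment named in the labels, with 1 library per cow. The question was how the members differ between states of the epithelial cell. Each cell was placed in 1 of 6 states by whether it held at least 1 UMI (unique molecular identifier, 1 captured transcript) of 4 genes. These were DLK2, which the study used for granule cells, CCL20, a chemokine, GJA1, a gap junction connexin that marks the channel-gap-like spinous cells of the study, and IGFBP5, a binding protein of insulin-like growth factors.

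GJA1+IGFBP5+ cells held both of the last 2 genes (579 cells in cow 1, 527 in cow 2 and 538 in cow 3). GJA1+ cells held GJA1 without IGFBP5 (164, 127 and 164). IGFBP5+ cells held IGFBP5 without GJA1 (1353, 3852 and 5714). CCL20+ cells held CCL20 but neither of those genes (13, 290 and 12), so this state rested on cow 2. DLK2+ cells held DLK2 alone (661, 1542 and 973), and negative cells held none of the 4 (599, 1063 and 2557). The states with GJA1 or IGFBP5 also took in cells with DLK2 or CCL20, and the CCL20+ state took in cells with DLK2. Without cells that held DLK2, the GJA1+IGFBP5+ state kept 1303 of 1644 cells, GJA1+ 358 of 455 and IGFBP5+ 6874 of 10919. DLK2+ cells are thus only the DLK2 cells without a UMI of the other state genes. One UMI is a loose criterion, and what free RNA in the droplets added to a state was not tested.

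The 20728 cells held 237958901 UMIs, with a median of 9747 to 12051 per cell in a cow, and 35 barcodes occurred in more than 1 library. The labelled tissue was checked on defining markers. KRT5, KRT14, KRT15 and IGFBP6, the basal keratinocyte markers, summed to 107 to 141 UMIs per 10000 in the 6 states, as means over cows. Of the fibroblast markers, PDGFRA had 29 UMIs in all cells and the 4 others measured had 1 to 5. Of the endothelial markers, VWF had 563, KDR 10, PECAM1 4 and CDH5 3. Of the immune markers, CD14 had 5013, CD68 819, CD3E 211, LYZ 126, PTPRC 38 and MS4A1 0. Of the smooth muscle markers, ACTA2 had 107, DES 102, MYH11 11 and TAGLN 2. The sum of S100A8, KRT6A, KRT10 and GJA1 was 21.7 ± 6.86 per 10000 UMIs (SD, n = 3 cows) in GJA1+IGFBP5+ cells and 2.12 ± 0.64 in DLK2+ cells. GJA1 itself defined the state and adds to that difference.

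Most members were found in few cells, and SLC4A4 and SLC4A11 were close to absent. SLC4A4, the electrogenic sodium bicarbonate cotransporter, had 9 UMIs in all cells, of which 5 were in IGFBP5+ and 3 in DLK2+ cells. No UMI of it was found in GJA1+IGFBP5+ cells, which allows a level of up to 0.00106 per 10000 UMIs (3 counts over the state, counting error only). SLC4A11 had 1 UMI, in an IGFBP5+ cell of cow 3. SLC26A2 had 5717 UMIs, SLC4A9 4366, SLC4A7 3817, SLC4A2 3367, SLC26A11 1935, SLC26A6 1812 and SLCO2A1 591. These 7 members passed the filter on low counts and were tested among 10772 genes. Each member carried its symbol and 1 Ensembl identifier in the files (SLC4A9, ENSBTAG00000021775; SLC4A7, ENSBTAG00000018227; SLC4A2, ENSBTAG00000011226).

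A level below is the UMIs of a gene per 10000 UMIs of all genes, summed over the cells of a state in a cow. A fold change comes from the edgeR quasi-likelihood test on these sums, with the cow as a block and TMM scaling, so it can differ from the ratio of 2 levels. A gene was called at a Benjamini-Hochberg adjusted p under 0.05 over all 10772 genes and an absolute log2 fold change above 0.25. With 1 library per cow and the cow as a block, the p-values rest on the spread left over all 18 sums of the fit. That spread is partly shared between genes. The p-values do not rest on the 3 paired differences of a contrast alone, so a call can stand where a cow goes the other way. Fewer expressing cells and fewer transcripts per cell cannot be told apart in these sums.

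**Figure D1:**
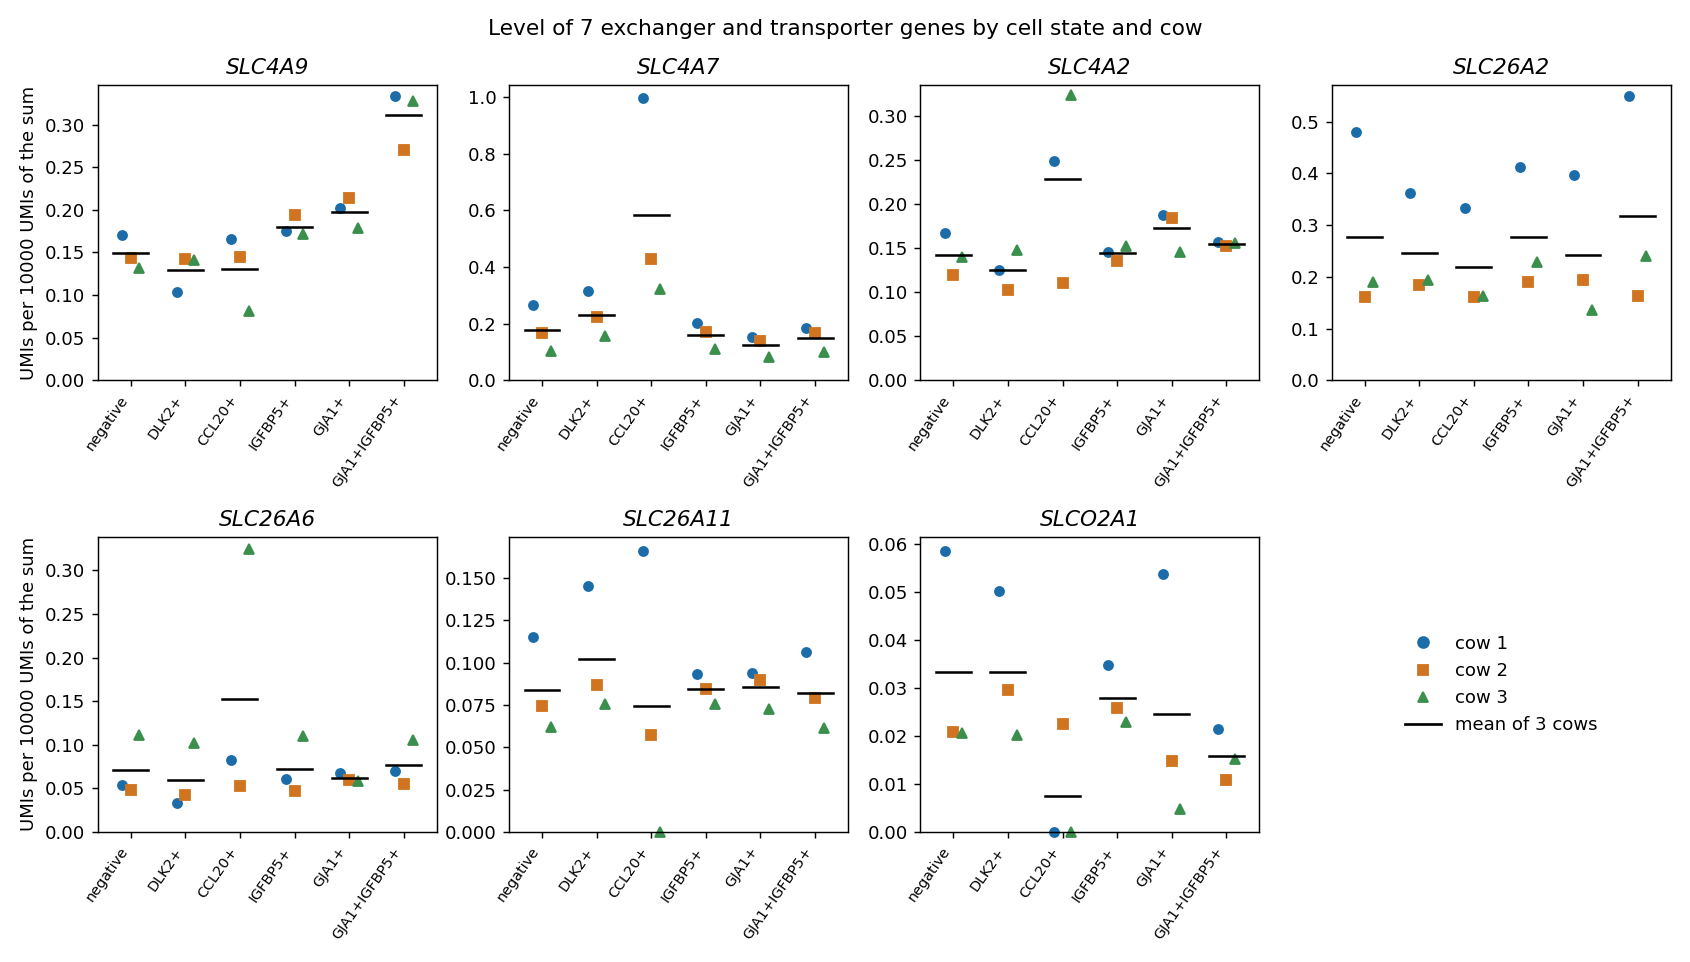
Level of the 7 tested members (y axis, UMIs per 10000 UMIs of the sum, a separate scale for each gene) in the 6 cell states (x axis), with 1 point for each cow and a bar for the mean of 3 cows. SLC4A9 was highest in GJA1+IGFBP5+ cells of each cow, between 0.27 and 0.334, SLC4A7 was highest in CCL20+ cells, and SLC26A2 was higher in cow 1 than in the other cows in every state.

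SLC4A9, an anion exchanger of the SLC4 family, had the widest range of state means among the 7 tested members once CCL20+ cells were left out, with a ratio of 2.41 between the highest and the lowest. Its level in GJA1+IGFBP5+ cells was 0.334, 0.27 and 0.328 in cows 1, 2 and 3. In DLK2+ cells it was 0.104, 0.142 and 0.141 in the same order, which is kept below. Every cow was higher in the GJA1+IGFBP5+ state, and the groups did not overlap. In this contrast 50.0% of all genes were called, and how many genes did not overlap was not counted. For SLC4A9 the difference was 2.66-fold (log2 1.41 ± 0.12 SE, adjusted p = 2.5e-10). It was called under 13 of 13 other settings, between 1.23 and 1.62 on the log2 scale. The study had reported high SLC4A9, from these same cells, in the channel-gap-like spinous cells it named for IGFBP5. The states rest on markers of that cell type, so the p-value and the settings are not independent support.

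The means over cows of the other states of SLC4A9 lay between these. GJA1+ cells had 0.202, 0.214 and 0.179, and IGFBP5+ cells had 0.175, 0.194 and 0.172. Negative cells had 0.171, 0.143 and 0.132, and CCL20+ cells had 0.166, 0.145 and 0.0809, on 2, 58 and 1 UMIs. In cow 3 both were below the 0.141 of DLK2+ cells. In the order of means, GJA1+IGFBP5+ cells (0.311 ± 0.0351, SD, n = 3) came before GJA1+ (0.198 ± 0.0178), IGFBP5+ (0.18 ± 0.0117), negative (0.149 ± 0.0203), CCL20+ (0.131 ± 0.0443) and DLK2+ cells (0.129 ± 0.0217). The first step of this order was called, at a log2 difference of 0.81 ± 0.17 (adjusted p = 0.0045). GJA1+ and IGFBP5+ cells, which follow each other, did not differ beyond their spread (log2 0.05 ± 0.17). IGFBP5+ cells exceeded negative cells by 0.42 ± 0.11 on the log2 scale, just past the threshold (adjusted p = 0.047; 2.14% of all genes were called), and only 3 of 13 other settings kept that call. It was lost without cow 1 (0.46, adjusted p = 0.061), cow 2 (0.37, adjusted p = 0.41) or cow 3 (0.38, adjusted p = 0.28). No step among the last 3 states was called.

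The level of SLC4A9 also followed the number of UMIs of GJA1 and of IGFBP5. Cells without GJA1 had 0.165 ± 0.00874 (SD, n = 3 cows), cells with 1 UMI of it 0.229 ± 0.0162, cells with 2 to 3 UMIs 0.278 ± 0.0136, and cells with 4 or more 0.345 ± 0.0599. The level was higher at each step in each of the 3 cows. For IGFBP5 the means were 0.143 at 0 UMIs, 0.164 at 1, 0.194 at 2 to 3 and 0.267 at 4 or more, again higher at each step in every cow. Cells with many UMIs of both genes had the highest level of the bins examined. The 473 cells with 4 or more UMIs of each had 0.404, 0.337 and 0.448, while 492 cells with 1 to 3 UMIs of each had 0.222, 0.197 and 0.254. Cells with more UMIs of a state gene were also deeper, at a median of 17885 UMIs for 4 or more of GJA1 and 10119 for none. By DLK2 UMIs the means of SLC4A9 were 0.201 at 0, 0.177 at 1, 0.163 at 2 to 3 and 0.172 at 4 or more. The cows did not share an order there. From 0 to 4 or more DLK2 UMIs, cow 1 went from 0.238 to 0.109, cow 2 from 0.189 to 0.164 and cow 3 from 0.175 to 0.243. All these bins were chosen after values had been seen and were not tested.

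SLC4A9 was also higher with many UMIs of IGFBP5 where GJA1 and DLK2 had none. In such cells the level was 0.148 ± 0.0191 without IGFBP5 and 0.225 ± 0.0184 with 4 or more of its UMIs, where the 3 cows had 0.222, 0.245 and 0.209. The 126 cells with 4 or more UMIs of GJA1 and no IGFBP5 had 0.224, 0.192 and 0.287, on 10, 16 and 17 UMIs. With 4 or more UMIs, each gene without the other thus came with a level between those of the negative and the GJA1+IGFBP5+ states in each cow. Fewer UMIs did not give this in every cow. With 1 UMI of IGFBP5 the levels were 0.165, 0.149 and 0.146, and in cow 1 this was below the 0.169 without IGFBP5. With 2 to 3 UMIs of GJA1 and no IGFBP5 they were 0.264, 0.282 and 0.0694, on 7, 8 and 3 UMIs, so that cow 3 was below its negative cells at 0.132.

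**Figure D2:**
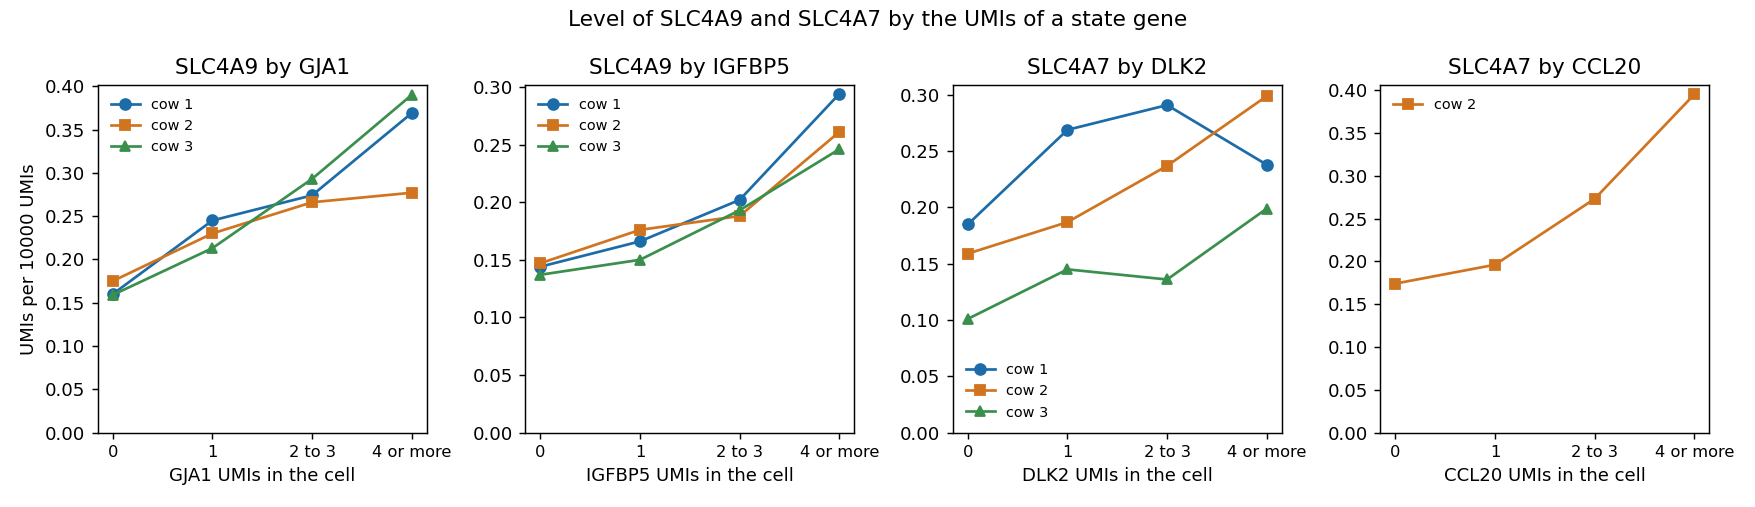
Level of SLC4A9 by the UMIs of GJA1 or IGFBP5 in a cell, and of SLC4A7 by the UMIs of DLK2 or CCL20 (x axes, UMIs of the state gene; y axes, UMIs per 10000 UMIs), with 1 line for each cow. SLC4A9 went up at each step of GJA1 and of IGFBP5 in every cow; SLC4A7 by CCL20 is drawn for cow 2 only, since the other cows had few CCL20 cells.

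The whole group was then compared between GJA1+IGFBP5+ and DLK2+ cells. Of the 7 tested members 4 rose and 2 fell, beside a background of 50.0% of all tested genes called in this contrast (24.5% higher and 25.5% lower). With that background a called member is no rare event, and the sizes say more than the count. Without cow 1 or without cow 2 the number called was 3, beside 4684 of 10678 and 3958 of 10580 genes, with fewer sums in the fit. Without cow 3 it was 6, beside 4986 of 10801 genes. Without the cow as a block it was 1, SLC4A9, beside 1446 of 10772 genes. No member was then called in the GJA1+, IGFBP5+ or CCL20+ cells against DLK2+ cells, beside 714, 17 and 37 genes.

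The states also differed in other ways. GJA1+IGFBP5+ cells had a median of 16636 ± 2336 UMIs per cell (mean of cows ± SD, n = 3) and a mitochondrial share of 18% ± 4.88, and DLK2+ cells had 8298 ± 798 UMIs and 11.2% ± 1.56. Immediate-early and stress genes (20 genes) summed to 49.5 ± 25.0 per 10000 in the first state and 103 ± 57.4 in the second, with 3 called higher and 14 lower in the first. SOCS3, an inhibitor of cytokine signalling, fell the most of them, to 0.009 ± 0.00502 from 0.0886 ± 0.0597 per 10000. JUNB fell by 1.67 on the log2 scale and GADD45B by 1.65. The 3 called higher, named here after their values had been seen, were the heat-shock genes HSPA6 (1.47), HSPH1 (1.35) and HSPA1A (0.44). Immune markers (6 genes) summed to 0.079 to 0.221 and 0.171 to 0.541, for the most part CD14, which fell by 1.27, and CD68 fell by 0.69. The endothelial list rested on VWF, which rose by 1.13, while PECAM1 and CDH5 were near 0. With states set on cells thinned to 5000 UMIs the SLC4A9 difference was 1.45, and 4 members were called, beside 4531 of 9896 genes. What part the mitochondrial share, the stress genes and the other markers have in the members' differences was not tested.

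SLC4A2, a chloride-bicarbonate exchanger found in most tissues, rose. Its level was 0.157, 0.152 and 0.156 in GJA1+IGFBP5+ cells and 0.125, 0.102 and 0.148 in DLK2+ cells of cows 1, 2 and 3. The first group lay above the second in every cow, by little in cow 3. The difference was 1.44-fold (log2 0.52 ± 0.12, adjusted p = 6.9e-04), and without cow 2 it was 0.40 (adjusted p = 0.053).

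SLC26A2 and SLC26A6 rose as well, with calls that depended on single cows. SLC26A2 was at 0.55, 0.163 and 0.24 in GJA1+IGFBP5+ cells and at 0.361, 0.185 and 0.194 in DLK2+ cells, so cow 2 went the other way. Its log2 difference was 0.48 ± 0.12 (adjusted p = 0.002), and without cow 1 it was 0.21 (adjusted p = 0.24). SLC26A6 was at 0.0701, 0.0552 and 0.105 against 0.0335, 0.0426 and 0.102. It was higher in 3 of 3 cows, although the groups overlapped because cow 3 was high in both. The log2 difference of 0.54 ± 0.18 (adjusted p = 0.012) was 0.34 without cow 1 (adjusted p = 0.16) and 0.57 without cow 2 (adjusted p = 0.056).

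SLC4A7 and SLCO2A1 fell. SLC4A7, an electroneutral sodium bicarbonate cotransporter that brings bicarbonate into the cell, was at 0.186, 0.167 and 0.0994 in GJA1+IGFBP5+ cells and 0.314, 0.223 and 0.158 in DLK2+ cells. Each cow was lower in the GJA1+IGFBP5+ state. It fell by 0.40 on the log2 scale (SE 0.10, adjusted p = 0.002). With states set on thinned cells the fall was 0.27, which did not pass (adjusted p = 0.095). Against IGFBP5+ and negative cells the log2 difference of SLC4A7 was -0.03 ± 0.10 and -0.01 ± 0.11, and neither was called. SLCO2A1, which carries prostaglandins into the cell, was at 0.0214, 0.0108 and 0.0153 against 0.0502, 0.0295 and 0.0203, on 45 and 89 UMIs. It fell by 0.89 on the log2 scale (SE 0.29, adjusted p = 0.011), and the adjusted p was 0.051 without cow 1 and 0.18 without cow 2. It was also lower than in IGFBP5+ cells, by 0.82 (SE 0.25, adjusted p = 0.0094), although without cow 2 that contrast gave -0.64 (adjusted p = 0.16).

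SLC26A11 was not called. It had 0.106, 0.0789 and 0.0612 in GJA1+IGFBP5+ cells and 0.145, 0.0865 and 0.0753 in DLK2+ cells, and its log2 difference was -0.06 ± 0.14 (adjusted p = 0.79) after scaling. Across the other settings it lay between -0.16 and -0.01.

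**Figure D3:**
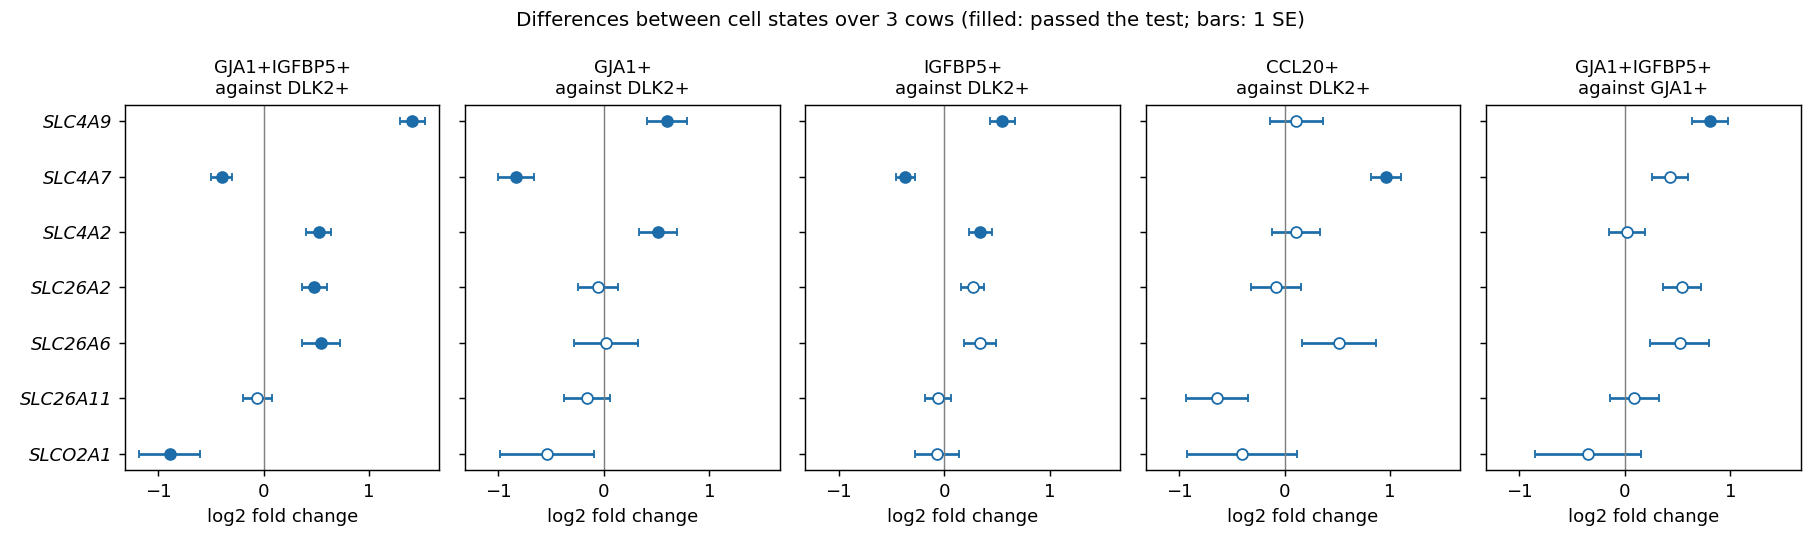
Log2 fold change (x axis) of the 7 tested members in 5 comparisons of cell states, with bars of 1 SE over sums of 3 cows; filled points passed the test. SLC4A9 was above 0 in the 3 panels with GJA1 or IGFBP5 cells against DLK2+ cells, and SLC4A7 was below 0 in those panels and at 0.96 in CCL20+ cells.

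The remaining contrasts with DLK2+ cells share that reference, so they are given side by side and are not separate evidence. In GJA1+ cells 3 of 7 members were called, beside 31.4% of all genes, and in IGFBP5+ cells also 3, beside 16.5%. Both contrasts named SLC4A9, SLC4A2 and SLC4A7. SLC4A9 rose by 0.60 ± 0.19 in GJA1+ cells (adjusted p = 0.018) and by 0.55 ± 0.12 in IGFBP5+ cells (adjusted p = 0.0014). SLC4A2 rose by 0.51 ± 0.18 (adjusted p = 0.029) and by 0.34 ± 0.11 (adjusted p = 0.029). SLC4A7 fell by 0.83 (SE 0.17, adjusted p = 3.0e-04) and by 0.37 (SE 0.09, adjusted p = 0.0042). In GJA1+ cells only 1 call was left without cow 1 and 1 without cow 2, beside 3154 of 10678 and 2220 of 10580 genes. SLC4A9 was there at adjusted p of 0.068 and 0.055. SLC4A2 in IGFBP5+ cells kept its call in 6 of 13 other settings, and its adjusted p was 0.13 without cow 1 and 0.49 without cow 2. Of the 20 immediate-early and stress genes 2 rose and 12 fell in GJA1+ cells, and 2 rose and 11 fell in IGFBP5+ cells. VWF rose by 1.22 in GJA1+ cells and CD14 fell by 0.56 in IGFBP5+ cells. Their part in the members' differences was not tested.

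SLC4A7 was the member that stood out in CCL20+ cells. Its level there was 0.429 in cow 2, on 172 UMIs, and 0.997 and 0.324 in cows 1 and 3, on 12 and 4 UMIs. DLK2+ cells of the same cows had 0.223 in cow 2, 0.314 in cow 1 and 0.158 in cow 3, so each cow was higher with CCL20. The difference was 1.94-fold (log2 0.96 ± 0.14, adjusted p = 4.5e-05). It was the 1 call among 7 members, beside 12.4% of all genes. Other markers moved with this state. The 6 immune markers summed to 1.66, 0.766 and 1.46 per 10000 in CCL20+ cells and 0.541, 0.504 and 0.171 in DLK2+ cells. Most of that sum was CD14, at 1.66, 0.689 and 1.38 in CCL20+ cells and higher by 0.97 ± 0.21 (adjusted p = 0.0029). CD3E (-0.88 ± 0.91) and CD68 (0.19 ± 0.34) were not called, and MS4A1 was at 0. S100A8 rose by 3.05 and KRT6A by 1.68. Their part in the SLC4A7 difference was not tested. Without cow 2, when 25 of the 315 cells remain, the log2 difference was 1.25 and was not called (adjusted p = 0.13). The study reported high SLC4A7 in a granule cell subtype from these same cells, so the CCL20+ result is not independent of it.

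Within cow 2, SLC4A7 was at 0.536 in the 165 CCL20+ cells that also held DLK2 (117 UMIs) and at 0.301 in the 125 that did not (55 UMIs). By number of CCL20 UMIs, cells of cow 2 had 0.174 at 0, 0.196 at 1, 0.273 at 2 to 3 and 0.395 at 4 or more. The level by DLK2 UMIs was 0.148 ± 0.0433 at 0 and 0.245 ± 0.0504 at 4 or more (SD, n = 3), though it was not ordered at each step in cows 1 and 3. DLK2+ cells exceeded negative cells by 0.39 ± 0.10 on the log2 scale (adjusted p = 0.014; 8.49% of all genes were called), and this was not called without cow 2 (0.44, adjusted p = 0.12) or cow 3 (0.30, adjusted p = 0.24).

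The mean order of SLC4A7 was thus CCL20+ (0.583 ± 0.362, SD, n = 3), DLK2+ (0.232 ± 0.0786), negative (0.179 ± 0.0799), IGFBP5+ (0.161 ± 0.0467), GJA1+IGFBP5+ (0.151 ± 0.0454) and GJA1+ (0.125 ± 0.0381). Its first 2 steps were called and the last 3 were not. SLC4A9 stood first in GJA1+IGFBP5+ cells and last in DLK2+ cells, so these 2 SLC4 genes were ordered differently over the states. Over all 7 members, 4 of the 35 steps between neighbouring states were called, beside 6.28% of such steps for all genes, and all 4 belonged to SLC4A7 and SLC4A9. Each time 1 of the 3 cows was left out, the number was 2, and the share over all genes was not counted there.

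For the other 5 members no step between neighbouring states was called. SLC4A2 and SLC26A6 had their highest means in CCL20+ cells, at 0.228 ± 0.109 and 0.153 ± 0.148, but cows 1 and 3 held 3 and 4 UMIs of SLC4A2 and 1 and 4 UMIs of SLC26A6 there. In cow 2, where the state had 44 UMIs of SLC4A2, its level was 0.11, close to the 0.102 of DLK2+ cells.

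With CCL20+ cells left out, the ratio between cows exceeded that between states for 4 members, SLC26A2, SLC26A6, SLC26A11 and SLC4A7. With CCL20+ cells included this held for SLC26A2 and SLC26A11, while the ratio between states became 4.66 for SLC4A7 and 2.58 for SLC26A6, above that between cows. Over all cells SLC26A2 was at 0.449 in cow 1, 0.182 in cow 2 and 0.216 in cow 3, a ratio of 2.47 between the highest and the lowest cow. The ratio between the highest and lowest state means was 1.31 without CCL20+ cells and 1.45 with them. SLC26A6 had a ratio of 2.29 between cows, with cow 3 at 0.109 and cow 2 at 0.0475, and 1.29 between states without CCL20+ cells. SLC4A9 was the opposite case, with 1.21 between cows and 2.41 between states. Again without CCL20+ cells, SLC4A7 had 1.98 between cows and 1.86 between states, SLC26A11 had 1.5 and 1.24, SLC4A2 had 1.15 and 1.38, and SLCO2A1 had 1.72 and 2.1. Cow and library are the same thing here, so animal and library preparation cannot be told apart.

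GJA1+IGFBP5+ cells were next set against GJA1+ cells, to ask what goes with IGFBP5 among GJA1 cells. SLC4A9 was the 1 member called (0.81, given above), beside 3.56% of all genes, and it was higher in 3 of 3 cows. That call was lost without cow 1 (0.69, adjusted p = 0.097) and without the cow as a block (0.80, adjusted p = 0.55). It was lost too when cells with DLK2 were left out of the GJA1+ and IGFBP5+ states (0.57, adjusted p = 0.14), where the GJA1+ level became 0.254, 0.263 and 0.179. Against IGFBP5+ cells, SLC4A9 was 0.86 ± 0.10 higher (adjusted p = 1.8e-07), a call kept in 13 of 13 other settings and the one that asks what goes with GJA1 among IGFBP5 cells, where 37.1% of all genes were called. Against GJA1+ cells, SLC4A7 was 0.43 ± 0.17 higher and not called (adjusted p = 0.21), with a call in 1 of 13 other settings. In that contrast GJA1+IGFBP5+ cells were also deeper, at a median of 16636 ± 2336 against 11683 ± 3969 UMIs (SD, n = 3 cows). Their mitochondrial share was 18% against 14.3%, and CD14 fell by 1.02 (adjusted p = 0.017). What part these have in the members' differences was not tested.

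Whether the difference with IGFBP5 was itself larger in cells with GJA1 was tested as an interaction. It set GJA1+IGFBP5+ minus GJA1+ cells against IGFBP5+ minus negative cells. Negative cells held no DLK2 or CCL20, while the other states of this test took in cells with them. The interaction can thus not be laid to IGFBP5 and GJA1 alone. No member was called by edgeR, beside 0.130% of all genes. DESeq2 called none either. In the edgeR fit 1 member, SLC4A7, had an unadjusted p under 0.05, beside 690 of 10772 genes. The interaction was 0.39 ± 0.21 for SLC4A9 (adjusted p = 0.82) and 0.41 ± 0.20 for SLC4A7 (adjusted p = 0.77). When 2 UMIs were asked for in place of 1, the SLC4A7 interaction became 1.38 and was called (adjusted p = 0.025), among 83 of 10237 genes. Under that rule SLC4A7 was at 0.0429, 0.101 and 0.039 in the 205 GJA1+ cells, on 3, 11 and 4 UMIs, and at 0.186, 0.159 and 0.104 in the 907 GJA1+IGFBP5+ cells.

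Cycling cells were compared as a description. The 3193 cells with a UMI of MKI67 or TOP2A, genes of dividing cells, had SLC26A6 at 0.0933, 0.0737 and 0.13 in cows 1, 2 and 3, and the 17535 other cells had 0.0511, 0.0449 and 0.1. Each cow was higher in cycling cells. SLC4A2 was also higher in each cow, at 0.168 ± 0.00861 against 0.138 ± 0.00932, and SLC4A7, SLC26A11 and SLCO2A1 were lower in each. SLC4A9 had 0.188 ± 0.0308 and 0.19 ± 0.014. Cycling cells were deeper, with a median of 13863 UMIs against 10045. Leaving them out of the states kept 6 members called between GJA1+IGFBP5+ and DLK2+ cells, beside 5169 of 10289 genes, with SLC4A9 at 1.41.

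**Figure D4:**
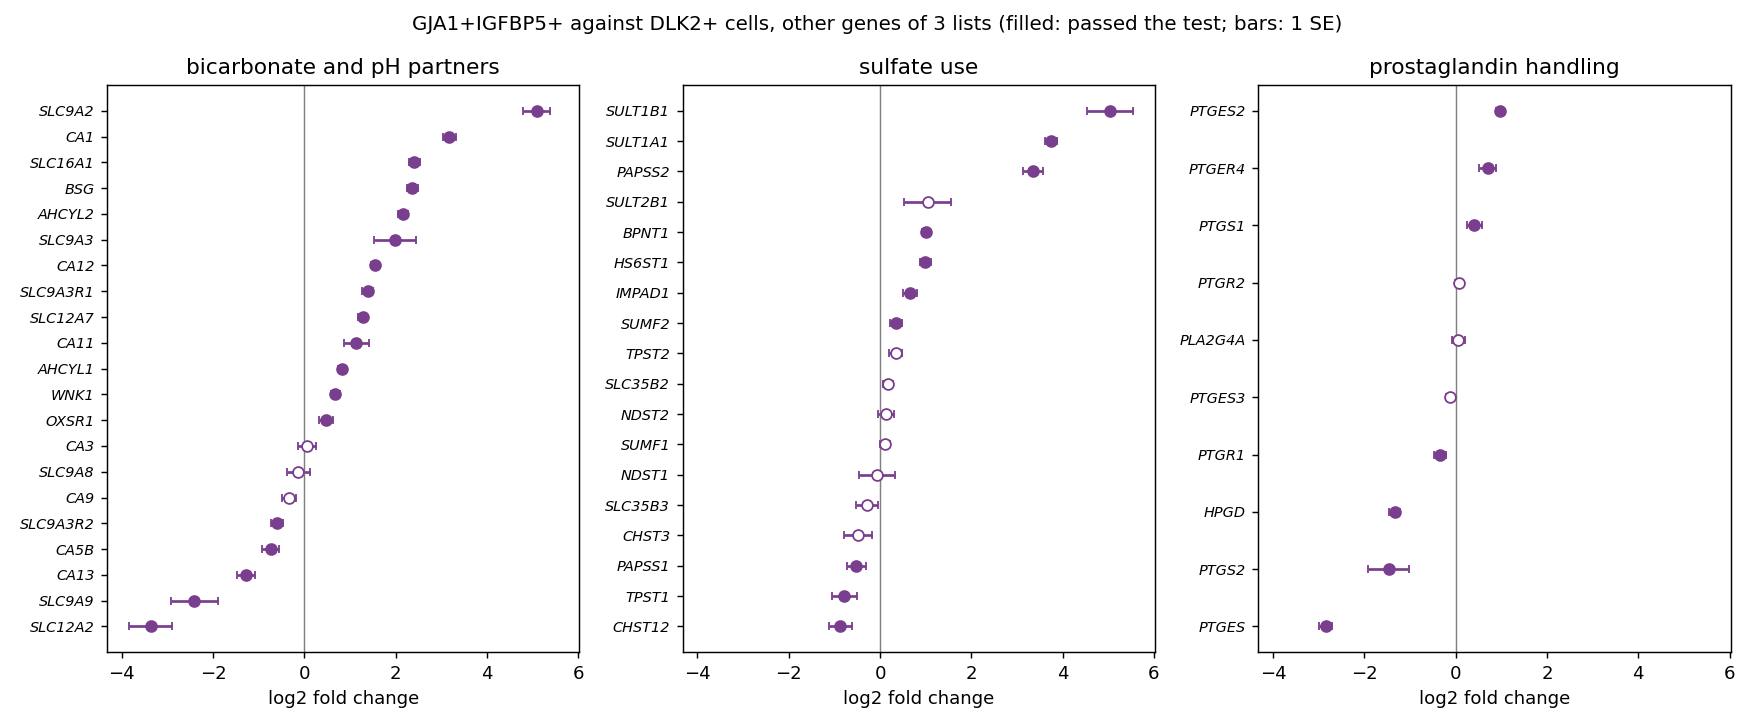
Log2 fold change (x axis) between GJA1+IGFBP5+ and DLK2+ cells for the tested genes of 3 lists of partners (1 bicarbonate and pH gene is not drawn), with bars of 1 SE over sums of 3 cows; filled points passed the test. Of 22 bicarbonate and pH genes 13 were higher and 5 lower; of 18 genes of sulfate use 7 were higher and 3 lower; of 10 prostaglandin genes 3 were higher and 4 lower.

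Genes that work beside the exchangers were taken from lists of known partners. Of 36 genes for bicarbonate supply, proton export and their control, 22 were tested, and between GJA1+IGFBP5+ and DLK2+ cells 13 rose and 5 fell, with a median log2 difference of 0.76 beside -0.03 over all genes. Of all genes in this contrast, 24.5% were called higher and 25.5% lower. SLC9A2, a sodium-proton exchanger, had 0.148, 0.071 and 0.0727 in GJA1+IGFBP5+ cells and 0.0093, 0.000656 and 0.00239 in DLK2+ cells, where it held 5, 1 and 2 UMIs. It rose by 5.09 ± 0.30. CA1, a carbonic anhydrase that makes bicarbonate from carbon dioxide, was at 1.8, 3.53 and 0.185 against 0.227, 0.401 and 0.0359, and it rose by 3.17 ± 0.14. Its level differed widely between cows in both states. SLC12A2, a cotransporter that loads cells with chloride, fell by 3.37 (SE 0.48), from 16, 28 and 35 UMIs in DLK2+ cells to 4, 2 and 1.

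AHCYL2, a regulator of SLC4 cotransporters, rose by 2.16 and AHCYL1 by 0.83. Both were picked from the list after their values had been seen. In CCL20+ cells, 3 of the 22 were called against DLK2+ cells, all higher, a share near the 12.4% of all genes.

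Of 18 tested genes of sulfate use 7 rose and 3 fell, with a median of 0.25, so the share called was near the 50.0% of all genes. SULT1A1, a cytosolic sulfotransferase, was at 4.83, 5.89 and 2.23 in GJA1+IGFBP5+ cells and 0.51, 0.342 and 0.241 in DLK2+ cells, and rose by 3.75 ± 0.13. PAPSS2, which makes the active sulfate donor, was at 0.269, 0.106 and 0.125 against 0.0205, 0.0151 and 0.0167, and rose by 3.35 ± 0.21. SULT1B1, another sulfotransferase, was called higher, on 43, 35 and 21 UMIs against 2, 1 and 0. SULT1A1, PAPSS2 and SULT1B1 were named for the largest called changes of the list. Of the sulfate carriers among the members, SLC26A2 was at 0.48 and SLC26A11 at -0.06, beside the list median of 0.25. Against GJA1+ cells, where 3.56% of all genes were called, 3 of the 18 were called in GJA1+IGFBP5+ cells. PAPSS2 rose by 0.89 ± 0.24 (adjusted p = 0.031) and SULT1A1 by 0.63 ± 0.12 (adjusted p = 0.002), while SULT2B1, a sulfotransferase of sterols named here after its values had been seen, fell by 1.99 (SE 0.48, adjusted p = 0.016).

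Of 10 tested prostaglandin genes 3 rose and 4 fell, with a median of -0.04, beside 24.5% of all genes called higher and 25.5% lower. PTGES, a prostaglandin E synthase, was at 0.036, 0.0256 and 0.0268 in GJA1+IGFBP5+ cells and 0.288, 0.206 and 0.249 in DLK2+ cells, and fell by 2.85 (SE 0.14). HPGD, which inactivates prostaglandins taken up by the cell, was at 0.267, 0.17 and 0.312 against 0.852, 0.547 and 0.743, and fell by 1.33 (SE 0.12). Neither gene overlapped between the states, though how many of all genes did not overlap was not counted. Both were named for having the largest called changes of their list. PTGS2, the inducible cyclooxygenase, fell by 1.47 (SE 0.45), on 1, 15 and 1 UMIs against 15, 44 and 2. SLCO2A1 fell beside these 3, while PTGES2, another prostaglandin E synthase named here after its value had been seen, rose by 0.97.

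Of 22 other genes of the SLC4, SLC26 and SLCO families, 12 were in the table and 1 passed the filter. SLCO4A1, an organic anion transporter, rose by 1.77 ± 0.39 in GJA1+IGFBP5+ cells, on 10, 32 and 4 UMIs against 3, 13 and 2. It rose by 2.67 ± 0.48 in CCL20+ cells, on 1, 22 and 1 UMIs.

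The genes most like each member were sought by Pearson correlation over the 18 sums of cow and state, with cow means taken out. The sums share libraries and cells of each cow, so the values are a description. For SLC4A9 these were UGT1A1, a glucuronosyltransferase (r = 0.97), COX3, a mitochondrial subunit of cytochrome oxidase (0.95), and UQCRC1, a subunit of mitochondrial respiratory chain complex (0.95). For SLC4A7 they were GAPVD1 (0.92), SLC11A2, an iron transporter (0.92), and STK17A (0.91). Without the CCL20+ sums, 1 of the 21 pairs of member and gene stayed in the list, SLC4A9 with UGT1A1, again at 0.97. The list of SLC4A9 then held CPT2 and ANXA8L1 in place of COX3 and UQCRC1. The leading value fell from 0.99 to 0.78 for SLC26A11 and from 0.99 to 0.95 for SLCO2A1, stayed at 0.97 for SLC4A9, and was higher for the 4 other members, as for SLC26A6 at 0.95 from 0.88. The 3 sums left out thus changed the list of every tested member, and 2 of them held 13 and 12 cells.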

How the data were processed

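Single cells of rumen epithelium from 3 cows were analysed. The authors aligned reads to the cattle genome with Cell Ranger 3.1.0 (ARS-UCD assembly, Ensembl annotation), filtered cells and kept epithelial cells. The authors looked for doublets with DoubletFinder, and no doublet caller was run here, so doublets among cells with UMIs of 2 state genes were not tested for. They deposited whole UMI counts, 1 count per gene and cell, and normalized values on a natural log scale. Those deposited natural log values equalled log of 1 plus the count scaled to 10000 UMIs, within 1e-06 at every value, so they served to name the rows of the count matrix. Barcode suffixes gave the cow. Depth was 38912809, 94856658 and 104189434 UMIs in cows 1, 2 and 3. It sets the counting error of each level, while precision over animals rests on 3 cows. No genome of the authors' build was at hand, so no position or sequence is given.

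Counts were summed per cow and state (18 sums) in Python 3.11.15 (numpy 2.4.6, pandas 2.3.3, matplotlib 3.10.9) and tested in R 4.3.3 with edgeR 4.0.16 (TMM, filterByExpr, quasi-likelihood test, cow as block, Benjamini-Hochberg adjustment). The study's own test over single cells was not used, since cells are not replicates. The SE of a log2 fold change was derived from the test statistic. States of a cow come from 1 animal and library, which pairs them. After state means were taken out, sums of the same cow correlated at 0.52 on average (lowest 0.14). Sums of different cows were at -0.30, but taking out state means by itself pulls that value below 0. The script was tested on simulated data.

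The members, states and lists were chosen with earlier results of these data known. Named genes were the 9 members, up to 3 genes of each list with the largest called change between GJA1+IGFBP5+ and DLK2+ cells, and the 3 genes most like each member (log2 CPM, prior count 2). A few more are named in the text as chosen after their values were seen. Not all of the named genes are given with values, and 1 gene that the list counts include is not reported here. The closing lines cover the alternatives: DESeq2 1.42.0, no count filter, RLE scaling, no block, each cow left out, and other rules for the states. The rule of 2 UMIs asked for 2 of GJA1, IGFBP5 or CCL20, left out cells with 1, and kept DLK2 at 1. The thinning rule set the states on cells thinned to 5000 UMIs and left out shallower cells, but the full counts were summed. The rest left out DLK2 cells from the states with GJA1 or IGFBP5, cycling cells, or cells under 1% mitochondrial UMIs. Leaving out the CCL20+ sums was added after seeing the data.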

Additional observations from a re-analysis of the deposited data

How the results depend on the processing

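Of the member values given with a test, 22 were recomputed under 13 alternatives, which gave 285 values. Of these 231 kept their side of the threshold, 52 lost the call, 2 gained it and none changed sign. Most of the 22 were called in the main fit, so these counts are no rate over all member values. Without the replicate block for the cow, members called fell to 1 for GJA1+IGFBP5+ against DLK2+ cells and to 0 for GJA1+, IGFBP5+ and CCL20+ against DLK2+ cells and for GJA1+IGFBP5+ against GJA1+ cells, genes called to 1446, 714, 17, 37 and 1 in the same order, and neighbouring steps to 0. Leaving out each cow in turn gave 3 to 6, 1 to 3, 2 to 3, 0 to 1 and 0 to 2 members in that order, with 3958 to 4986, 2220 to 3154, 801 to 1519, 144 to 1260 and 138 to 301 genes, and 2 neighbouring steps each time. These fits hold fewer sums. For GJA1+IGFBP5+ against GJA1+ cells, 2 members were called with no filter on low counts (569 of 18326 genes) and 2 under the rule of 2 UMIs (297 of 10237). In the same contrast 0 were called without DLK2 cells (177 of 10558 genes), and 153 of 9896 genes were called with states set on thinned cells. With 2 UMIs 1 member was called in the interaction, beside 83 of 10237 genes. With states set on thinned cells 2 members were called in CCL20+ against DLK2+ cells, beside 1999 of 9896 genes. Neighbouring steps called, whose share over all genes was counted in the main fit only, were 2 without DLK2 cells and 2 without cycling cells. The cause of these changes was not tested. The CCL20+ sums of 2 cows held 13 and 12 cells, with no UMI of SLCO2A1; what depth limited was not tested.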

Other observations

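Of 3 other lists, which mark cell states and not anion transport, 4 of 4, 2 of 4 and 2 of 4 genes were called between GJA1+IGFBP5+ and DLK2+ cells, a contrast in which 50.0% of all genes were called, so the last pair of lists, the basal and cycling genes, was at that background. Of the 4 channel-gap-like spinous markers, S100A8, a calcium-binding protein of stressed epithelium, rose by 3.62 ± 0.17 and KRT6A by 3.19 ± 0.15. GJA1, counted here beside KRT10, defines the state, so its call is no result. Of the 4 basal keratins and markers, KRT15 rose by 0.62 ± 0.12 and KRT5 by 0.40 ± 0.10, while KRT14 (0.18 ± 0.14) and IGFBP6 (-0.25 ± 0.16) were not called. KRT15 was at 52.5, 61.6 and 57.7 UMIs per 10000 in GJA1+IGFBP5+ cells and 38.4, 44.9 and 45.2 in DLK2+ cells, without overlap. The share of all genes without overlap was not counted. Of the 4 cycling genes, RRM2 rose by 1.04 ± 0.27 and TROAP by 0.65 ± 0.27, while MKI67 (0.55 ± 0.28) and TOP2A (0.51 ± 0.28) were not called. In GJA1+ cells without IGFBP5, the level of KRT6A was 11.7, 11.4 and 39 per 10000, above the 4.43, 6.73 and 14.2 of GJA1+IGFBP5+ cells, while KRT15 was at 35, 34.9 and 30.3.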
